A study of Homo sapiens with 12 samples.

Results

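The genes described here carry out ubiquitin attachment, ubiquitin removal and proteasomal breakdown: E1, E2 and ligase enzymes, deubiquitinases, and the subunits and partners of the proteasome. They were chosen by gene symbol alone. A gene counted if the array annotation gave its probe set a single symbol starting with UBE2, UBA, USP, UCHL, CUL, FBX, RNF or PSM (A to G) followed, for all but UBE2, UCHL and FBX, by a number, without PSMB9. This gave 120 of the 8545 genes on the arrays: 2 E1 enzymes, 12 E2 enzymes, 44 ligase genes (8 cullins, 14 F-box genes and 22 RING finger genes of the RNF series), 22 deubiquitinases and 36 proteasome genes. The remaining 4 matched by symbol only: PSMC3IP and USP6NL, which are named for the genes they resemble or bind, and the pseudogenes FBXW4P1 and USP32P2. USP9Y was counted, but its values are not given. Each gene is represented by its brightest probe set, the group of probes with the highest mean over all 12 arrays.

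SNB19 and SF539 are established human glioblastoma lines, a brain tumour of glial character. Both were transfected with scramble siRNA, with PARK2 siRNA1 or with PARK2 siRNA2, and RNA was taken 48 h later. The 6 groups are therefore SNB19 scramble, SNB19 siRNA1, SNB19 siRNA2 and the same 3 treatments of SF539, with 2 arrays each, and no untransfected sample was analysed here. PARK2 encodes parkin, itself a ubiquitin ligase, and the design asks which transcripts differ after its knockdown; the level of PARK2 was not analysed here, so the knockdown was not checked.

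Ubiquitin is a small protein that is activated by an E1, passed to an E2 and joined to a substrate with the help of a ligase, which picks the substrate. Cullin ligases are built on a cullin scaffold that takes exchangeable receptors such as F-box proteins, whereas RING finger proteins bring the E2 to the substrate directly; parkin belongs to the RING-between-RING kind, as do RNF19B, RNF14 and RNF144A. Deubiquitinases remove ubiquitin again, and the proteasome, a barrel of alpha and beta subunits capped by a regulatory particle of ATPases and other subunits, degrades tagged proteins. Under interferon, cells exchange beta subunits for PSMB8, PSMB9 and PSMB10 and add the PSME1-PSME2 cap, which is the immunoproteasome, and they attach the ubiquitin relative ISG15 through the E2 UBE2L6.

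All values are log2 expression as deposited, so a difference of 1 is a doubling, and values of different genes are not compared since each probe set has its own brightness. Differences were tested with limma over all 8545 genes and all 12 arrays, and a gene was called where the Benjamini-Hochberg adjusted p was below 0.05. The labels do not say whether the 2 arrays of a group came from separate cultures, so the p-values measure the spread between these arrays, which may be technical. Replicates correlated at 0.991 to 0.998 across genes. The median replicate SD was 0.132 in SF539 siRNA2 and between 0.0616 and 0.0852 in the other 5 groups. Of 8 measured glial or glioma markers, VIM, CD44 and SOX2 lay above the lower quartile of all probe sets in all 6 groups. GFAP, S100B and FABP7 did so in SNB19 only, and OLIG2 and AQP4 in no group. SOX2 group means were 9.11 to 9.52 in SNB19 but 4.55 to 4.81 in SF539, below the lowest array median of 5.94. The mean over these 8 of 9 listed markers moved with the siRNAs in SNB19, from 8.30 to 8.40 on the scramble arrays to 9.05 to 9.21 on the siRNA arrays, although SOX2 went from 9.52 to 9.11 with either siRNA; it was 5.95 to 6.20 in SF539. The mean of 4 endothelial markers also moved in SNB19, from 4.54 to 4.66 with scramble to 5.08 to 5.23 with siRNA1 and 4.91 to 4.92 with siRNA2, and that of 3 epithelial markers from 3.28 to 3.41 to 3.83 to 3.94 and 3.59 to 3.68, with KRT19 at 4.09, 5.58 and 5.11. The part of these markers in the results below was not tested. The mean of 4 leukocyte markers was 4.17 to 4.36 in all groups. PTPRC, EPCAM and CDH1 lay below the lower quartile in all groups, whereas CD3E, ITGAM, PECAM1 and VWF lay above it in all 6.

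In SNB19, the members with an interferon-inducible role, UBE2L6, PSMB8, PSME1 and PSMB10, all fell with both siRNAs. The first 3 had the largest differences of all members. The list of interferon-inducible members holds 9 genes, of which these 4 are measured. They were 4 of 4 called lower, against 17.4% of all genes. Their median difference was -1.90, where the median of all genes was -0.01. The choice of this list was made with earlier results of these arrays known.

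The start regions of 3 of these genes hold the letters GAAAGCGAAA on one of the strands, a form of GAAANNGAAA, which resembles the core of the element bound by interferon regulatory factors. The stretches are shown because these genes fell together. They come from RefSeq's promoter windows on GRCh38.p14 (250 bases before to 50 after each annotated start), are written 5′ to 3′ on the gene's strand, and have the matching letters in capitals, which read TTTCGCTTTC where the match is on the other strand. PSMB8 lies on the minus strand (chr6:32844022-32844111), with the match from 4 bases before to base 6 of the transcript. PSME1 lies on the plus strand (chr14:24136139-24136223), with the match at bases 6 to 15 of the transcript. PSMB10 lies on the minus strand (chr16:67936842-67936931), with the match from 21 to 12 bases before the start.
PSMB8: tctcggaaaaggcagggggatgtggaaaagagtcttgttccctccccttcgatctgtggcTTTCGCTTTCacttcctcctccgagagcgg
PSME1: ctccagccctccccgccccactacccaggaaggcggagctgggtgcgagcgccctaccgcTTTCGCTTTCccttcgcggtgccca
PSMB10: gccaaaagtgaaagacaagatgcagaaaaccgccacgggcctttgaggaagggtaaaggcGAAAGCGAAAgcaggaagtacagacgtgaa

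The same search over both strands found GAAANNGAAA in 1255 of all 35116 windows (3.57%) and in 5 of the 147 windows (3.4%) of the 103 members that the table holds. The exact letters GAAAGCGAAA, taken from the PSMB8 match and searched after the matches were seen, are in 35 windows (0.0997%), 3 of them in the genes above. The PSMB8 match to these letters was thus fixed in advance. The other 2 members with a match are PSMB4 and PSMA4, beta and alpha subunits of the constitutive barrel, shown for comparison with their windows on the plus strand (chr1:151399445-151399534 and chr15:78540155-78540194). Neither was called in SNB19: the difference was 0.11 ± 0.08 (SE) for PSMB4 and -0.01 ± 0.07 for PSMA4, with limma adjusted p of 0.343 and 0.962. The 2 windows of UBE2L6 have no match to these letters.
PSMB4: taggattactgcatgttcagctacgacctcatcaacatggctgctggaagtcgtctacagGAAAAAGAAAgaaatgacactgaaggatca
PSMA4: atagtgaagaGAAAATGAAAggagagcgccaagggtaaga

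UBE2L6, the E2 that serves ISG15, read 11.45 and 11.28 on the SNB19 scramble arrays, 6.84 and 6.96 with siRNA1, and 6.97 and 7.0 with siRNA2. All 4 siRNA arrays lay far below both scramble arrays and close to each other. It was 21.5-fold lower, a log2 difference of -4.43 ± 0.08 (SE, limma adjusted p = 1.97e-10), and had the largest difference of any member in SNB19. In SF539 the same gene read 11.05 and 11.03 with scramble, 10.67 and 10.73 with siRNA1, and 10.65 and 10.72 with siRNA2. The groups again did not overlap, but the difference was -0.34 ± 0.08 (adjusted p = 0.0217).

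PSMB8, the immunoproteasome form of the chymotrypsin-like subunit, read 10.89 and 10.86 with scramble in SNB19, 8.42 and 8.44 with siRNA1, and 9.22 and 9.07 with siRNA2. The siRNA2 arrays lay between the other groups. The difference was -2.09 ± 0.11 (adjusted p = 5.92e-07), or 4.24-fold. PSME1, the alpha subunit of the cap that opens the barrel, read 11.20 on both scramble arrays, 9.46 and 9.36 with siRNA1, and 9.61 and 9.51 with siRNA2, a difference of -1.72 ± 0.07 (adjusted p = 1.2e-07). PSMB10, the immunoproteasome form of the trypsin-like subunit, read 9.51 and 9.39, then 8.35 and 8.33, then 9.01 and 8.80 in the same order, a difference of -0.83 ± 0.13 (adjusted p = 0.00106). In all 3 genes every siRNA array lay below both scramble arrays. In SF539 none of the 3 was called: the differences were -0.28 ± 0.11 for PSMB8 (95% interval -0.53 to -0.03), -0.07 ± 0.07 for PSME1 (-0.24 to 0.09) and 0.03 ± 0.13 for PSMB10 (-0.27 to 0.33). Without siRNA2 replicate 1, PSMB8 was called there, at -0.38 (adjusted p = 0.00527). The difference between the lines in response (SF539 minus SNB19) was itself called for all 4 genes, at 4.08 for UBE2L6, 1.81 for PSMB8, 1.64 for PSME1 and 0.86 for PSMB10.

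**Figure D1:**
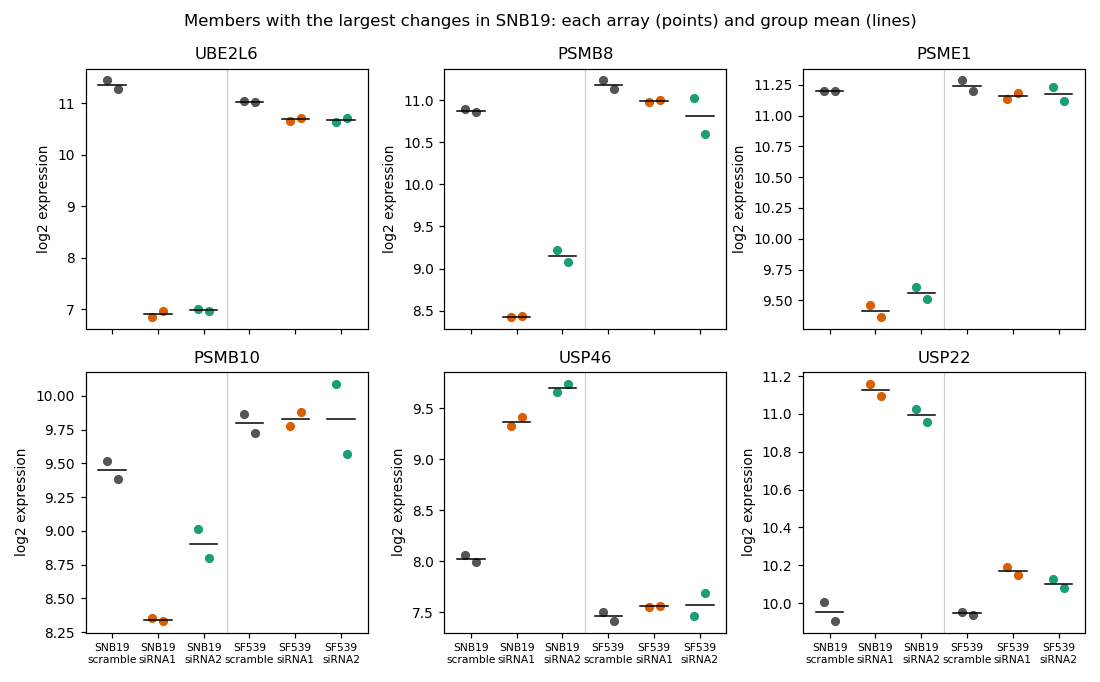
Log2 expression (vertical axis) of 6 members on each of the 12 arrays (points) with the mean of each group (lines), SNB19 left of the grey line and SF539 right of it. UBE2L6, PSMB8, PSME1 and PSMB10 are lower and USP46 and USP22 higher on all 4 siRNA arrays of SNB19 than on its 2 scramble arrays, and the SF539 groups lie much closer together (UBE2L6 differs there by -0.34, against -4.43 in SNB19).

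Over all 120 members, 44 (36.7%) were called in SNB19 with both siRNAs, 22 higher and 22 lower. Of all genes, 32.8% were called, 15.5% higher and 17.4% lower, so the members' share was near that of the array as a whole, and the members' median difference was -0.02. With each array centred on its own median, under which the all-gene median was 0.12, 33 members were called higher and 12 lower. The count was 22 without scramble replicate 1, 22 without scramble replicate 2 and 28 without siRNA2 replicate 2. Counting positions without a test, all 4 siRNA arrays lay below both scramble arrays for 40 members (33.3%, against 26.4% of all genes) and above for 28 (23.3%, against 24.2%).

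Of the 2 E1 enzymes, UBA3, which activates the ubiquitin relative NEDD8, was called higher in SNB19 at 0.23 ± 0.08 (SE, limma adjusted p = 0.0489), and UBA1, the main ubiquitin E1, was not (0.19 ± 0.16, adjusted p = 0.433). The UBA3 call did not hold without any 1 of the SNB19 arrays (adjusted p between 0.075 and 0.223), without either SF539 scramble array (0.0613) or without either SF539 siRNA1 array (0.0615). Its group means in SNB19 were 9.93 with scramble, 10.06 with siRNA1 and 10.27 with siRNA2.

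Among the 12 E2 enzymes, 2 rose and 3 fell in SNB19, against 15.5% and 17.4% of all genes. Besides UBE2L6, UBE2K fell by 0.35 ± 0.10 on the log2 scale (adjusted p = 0.0226) and UBE2G1 fell by 0.25 ± 0.07 (adjusted p = 0.0151); both build ubiquitin chains that mark proteins for the proteasome. The mean of probe sets ended the UBE2K call (-0.14, adjusted p = 0.194). Centring on the array median ended both calls (adjusted p = 0.0932 and 0.214), as did leaving out either scramble array (0.11 without either for UBE2K; 0.0683 and 0.103 for UBE2G1). For UBE2K the adjusted p was 0.0621 with replicate 2 of siRNA1 left out, and 0.0621 with that of siRNA2 left out. UBE2N, which makes chains used in signalling and repair, rose by 0.28 ± 0.08 (adjusted p = 0.0294), and UBE2E1 rose by 0.19 ± 0.06 (adjusted p = 0.0463). A second probe set of UBE2N differed by 1.41, and the mean of its probe sets gave 0.67, so the size for this gene depends on the probe set. Neither call held without any 1 of the 6 SNB19 arrays, where the adjusted p was between 0.0518 and 0.17 for UBE2N and between 0.0936 and 0.238 for UBE2E1. That of UBE2E1 was also lost without either SF539 scramble array (0.0555) or siRNA1 array (0.0733).

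Of the 8 cullins, CUL4A and CUL4B rose in SNB19 and none fell, against 15.5% and 17.4% of all genes. These close relatives carry the DDB1 adaptor and its receptors. CUL4A read 8.43 on both scramble arrays, 9.16 and 9.24 with siRNA1, and 9.26 and 9.29 with siRNA2, so that all siRNA arrays lay above scramble. Its rise was 0.81 ± 0.08 (adjusted p = 3.17e-05), while its other probe set differed by 0.04, so this rise rests on 1 of 2 probe sets; their mean gave 0.43. CUL4B rose by 0.27 ± 0.06 (adjusted p = 0.0102); leaving out scramble replicate 1 or 2 gave 0.0659 and 0.0662. CUL1 and CUL3, the measured 2 of a list of 6 ligase parts that act on G1/S cyclins or the anaphase-promoting complex, were not called by limma in either line, nor below an unadjusted p of 0.05 (-0.23 ± 0.10 and 0.10 ± 0.09 in SNB19, -0.08 ± 0.10 and -0.07 ± 0.09 in SF539). With the mean of its probe sets CUL3 was called in SNB19, at 0.30 (adjusted p = 0.021).

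F-box genes, the substrate receptors of CUL1 ligases, had 5 of 14 called higher and 2 lower in SNB19 (15.5% and 17.4% of all genes). Their median difference was 0.13. FBXW2 read 8.58 and 8.50 with scramble, 9.47 and 9.41 with siRNA1, and 9.34 on both siRNA2 arrays. All siRNA arrays were higher, and the rise was 0.85 ± 0.07 (adjusted p = 1.31e-05). FBXL18 rose by 0.83 ± 0.16 (adjusted p = 0.00262), FBXO21 by 0.62 ± 0.19 (0.0301) and FBXO11 by 0.59 ± 0.11 (0.0021). All 3 probe sets of FBXO21 were higher, by 0.62, 0.79 and 0.61, although the call on the brightest was lost without any 1 of the 6 SNB19 arrays (adjusted p between 0.0572 and 0.145). FBXL14 fell by 0.68 ± 0.11 (adjusted p = 0.000989). FBXO7, which partners parkin in mitochondrial quality control, fell by 0.29 ± 0.09 (adjusted p = 0.0305); this call was lost on median centring (0.185) and without scramble replicate 1 (0.217) or 2 (0.0676), siRNA1 replicate 2 (0.0922), or siRNA2 replicate 1 (0.0835) or 2 (0.0503).

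Of 22 RING finger genes of the RNF series, 8 were called lower and 2 higher in SNB19, against 17.4% and 15.5% of all genes. Their median difference was -0.16. On median centring the counts were 6 lower and 3 higher, with a median of -0.03. RNF19B, a RING-between-RING ligase like parkin, read 8.21 and 7.74 with scramble, 6.58 and 6.49 with siRNA1, and 6.73 and 6.61 with siRNA2. The scramble arrays differed from each other more than the siRNA arrays did, yet no siRNA array reached the lower of them. It fell by 1.37 ± 0.15 (adjusted p = 0.000101). RNF24, a membrane-bound ligase, fell by 0.91 ± 0.12 (adjusted p = 0.000313), and its other 2 probe sets differed by -0.36 and -0.59. RNF8, which ubiquitinates chromatin at DNA breaks, fell by 0.69 ± 0.10 (adjusted p = 0.000596), but its dim second probe set differed by 0.49 in the other direction, and with the mean of both the adjusted p was 0.436. RNF113A, a splicing and DNA repair factor, fell by 0.48 ± 0.08 (adjusted p = 0.000879).

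The 2 RNF genes called higher in SNB19 were RNF11 and RNF14, at 0.44 ± 0.10 (adjusted p = 0.00648) and 0.23 ± 0.07 (adjusted p = 0.0367). In both genes the siRNA arrays overlapped with scramble, and the rise came from siRNA2, as described below. The RNF11 call was lost without scramble replicate 1 (0.0639). That of RNF14 was lost without scramble replicate 1 (0.229) or 2 (0.0868), siRNA1 replicate 2 (0.107), siRNA2 replicate 1 (0.0826) or 2 (0.0808), or either SF539 siRNA1 array (0.0562), and with the mean of its probe sets (0.659). RNF41, a ligase that acts on parkin, was not called (-0.11 ± 0.11).

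Deubiquitinases held the largest rises of any member. Of 22, 5 were called higher and 3 lower in SNB19 (15.5% and 17.4% of all genes). On median centring the counts were 8 and 0. USP46, which works with WD-repeat cofactors, read 8.06 and 7.99 with scramble, 9.32 and 9.41 with siRNA1, and 9.66 and 9.74 with siRNA2. All siRNA arrays were above scramble, and the rise was 1.51 ± 0.08 (adjusted p = 7.1e-07), or 2.85-fold. Its second probe set differed by 1.57. USP22, the deubiquitinase of the SAGA chromatin complex, read 10.00 and 9.91 with scramble, 11.16 and 11.10 with siRNA1, and 11.03 and 10.96 with siRNA2. The groups were again apart, with a rise of 1.11 ± 0.07 (adjusted p = 1.83e-06), while its 2 other probe sets, both dim, differed by -0.05 and -0.13, and the mean of the 3 gave 0.31. In SF539 neither was called, USP46 at 0.10 (95% interval -0.08 to 0.29) and USP22 at 0.19 (0.04 to 0.34).

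USP7, a deubiquitinase of MDM2 and p53, rose in SNB19 by 0.70 ± 0.08 (adjusted p = 0.000105), with its other probe set at 0.11 and the mean of both at 0.41. USP12, a close relative of USP46, rose by 0.60 ± 0.08 (adjusted p = 0.000311), with a dim second probe set at -0.10 and an adjusted p of 0.0787 for the mean of both. USP4, USP20 and USP19 fell, with differences of -0.39 ± 0.11, -0.39 ± 0.11 and -0.30 ± 0.08 (adjusted p of 0.0206, 0.0176 and 0.0203). These 3 calls were lost on median centring (adjusted p between 0.0769 and 0.157) and without scramble replicate 1 (between 0.0974 and 0.106) or 2 (between 0.0871 and 0.109). With replicate 2 of siRNA1 left out the adjusted p was 0.0512 for USP4 and 0.0513 for USP20, and with that of siRNA2 left out 0.0638 and 0.0564. For USP19 it was 0.061 and 0.0565 with replicate 1 of siRNA1 or of siRNA2 left out. USP8, which removes ubiquitin from parkin, differed by -0.16 ± 0.07 and was not called (adjusted p = 0.124), but was with array weights (0.0465) and with the SNB19 arrays alone (0.0481).

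**Figure D2:**
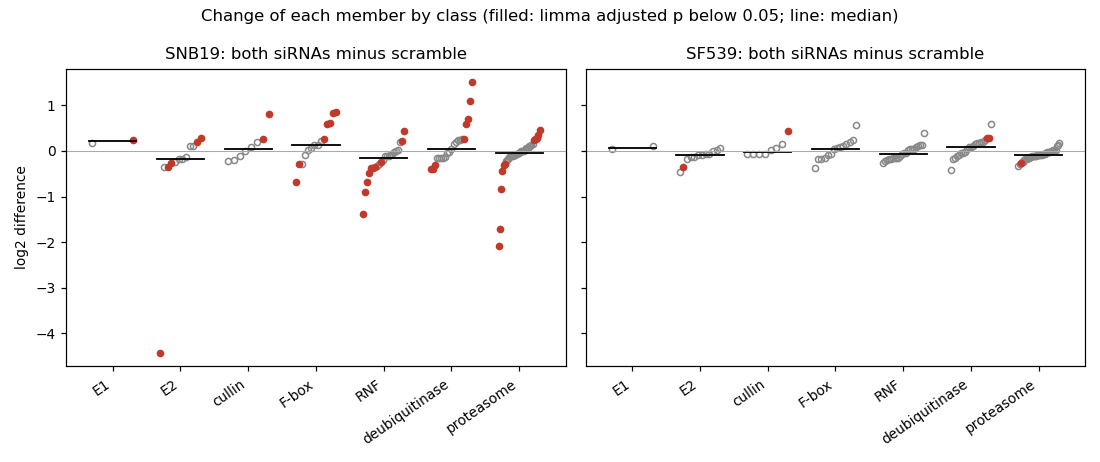
Log2 difference of each printed member (both siRNAs minus scramble, vertical axis) by class for SNB19 (left) and SF539 (right), with filled points for limma adjusted p below 0.05 and a line at each class median. Filled points lie on both sides of 0 in SNB19, with UBE2L6 lowest at -4.43 and USP46 highest at 1.51, and only 5 members are filled in SF539.

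Of the 34 numbered alpha, beta, ATPase and regulatory genes without the immunosubunits, 29 are measured, and 3 were called higher and 3 lower in SNB19 (20.7%, against 32.8% of all genes) with a median of -0.02. On median centring the counts were 6 and 1 and the median 0.11, close to the all-gene median under the same centring, given above. On quantile normalization they were 2 and 4 and -0.10. The counts and the sign of the median thus depended on the scaling, and the shift on median centring was shared by all genes. PSMD5, a chaperone that helps build the regulatory base, rose by 0.46 ± 0.09 (adjusted p = 0.00286), or 0.22 with the mean of its probe sets. The base ATPase PSMC3 rose by 0.36 ± 0.11 (adjusted p = 0.0276), a call lost without scramble replicate 1 (0.0892) or 2 (0.163), siRNA1 replicate 1 (0.0552) or 2 (0.07), or siRNA2 replicate 2 (0.0813). PSMA5, an alpha subunit, fell by 0.44 ± 0.09 (adjusted p = 0.00532; 0.0526 without scramble replicate 1).

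Outside the core set, PSMG1, an assembly chaperone, rose by 0.26 ± 0.07 (adjusted p = 0.0218), which was lost without scramble replicate 1 (0.126) or 2 (0.0918), siRNA1 replicate 1 (0.065) or siRNA2 replicate 2 (0.0658). PSME4, an activator cap, was called higher at 0.28 ± 0.07 (adjusted p = 0.0162) on its brightest probe set. Its other 2 probe sets differed by -0.53 and -0.14, and the mean of the 3 gave -0.13 (adjusted p = 0.327), so the direction for PSME4 is not settled. Without scramble replicate 1 or 2 its adjusted p was 0.0946 and 0.0857, and without siRNA1 or siRNA2 replicate 1 it was 0.0516 and 0.0527.

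Set side by side, siRNA1 alone called 32 members in SNB19 (13 higher, 19 lower; 26.1% of all genes were called) and siRNA2 alone called 34 (17 and 17; 29.7%); both use the same scramble arrays. Without scramble replicate 1 the counts were 21 and 18. For siRNA1 the count was 20 without either of its own arrays, and 53 without either array of SF539 siRNA2, the group with the widest spread. For siRNA2 it was 20 without its own replicate 2. UBE2L6, PSMB8 and PSME1 led the falls and USP46 and USP22 the rises in both, with siRNA1 and siRNA2 values of -4.47 and -4.38, -2.44 and -1.73, -1.79 and -1.64, 1.34 and 1.68, and 1.17 and 1.04. The next rise was FBXW2 for siRNA1 at 0.90 and CUL4A for siRNA2 at 0.85, and the next fall was RNF19B in both, at -1.44 and -1.30.

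The direct comparison of siRNA2 with siRNA1 in SNB19, which does not use the scramble arrays, called 5 members (4 higher and 1 lower with siRNA2; 6.06% of all genes were called, 3.08% higher and 2.98% lower). In 4 of these the gene was an RNF ligase. RNF11, a partner of the A20 complex that dampens inflammatory signalling, read 10.12 and 10.22 with siRNA1 and 10.81 and 11.06 with siRNA2, beside 10.08 and 10.15 with scramble. Only the siRNA2 arrays stood apart, by 0.76 ± 0.11 from siRNA1 (limma adjusted p = 0.00404; 0.0535 without siRNA1 replicate 1). RNF6 read 9.70 and 9.72 with siRNA1 and 10.40 on both siRNA2 arrays, beside 10.23 and 10.37 with scramble, so that here siRNA1 stood apart, by 0.69 ± 0.08 (adjusted p = 0.00118), or 0.36 with the mean of its probe sets.

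RNF24 was lower with siRNA2 than with siRNA1, at 8.33 and 8.47 against 9.13 and 8.94, a difference of -0.63 ± 0.14 (adjusted p = 0.0289). PSMB8 was 0.72 ± 0.13 higher with siRNA2 (adjusted p = 0.0114). RNF14, named here because it completes the count, was 0.33 ± 0.08 higher with siRNA2 (adjusted p = 0.0499). The count of 5 became 1 without siRNA1 replicate 1, 2 without siRNA1 replicate 2 or without either siRNA2 array, and 12 without either array of SF539 siRNA2. The RNF24 and PSMB8 calls were lost without any 1 of the 4 SNB19 siRNA arrays (adjusted p between 0.0822 and 0.221 for RNF24 and between 0.0508 and 0.105 for PSMB8).

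**Figure D3:**
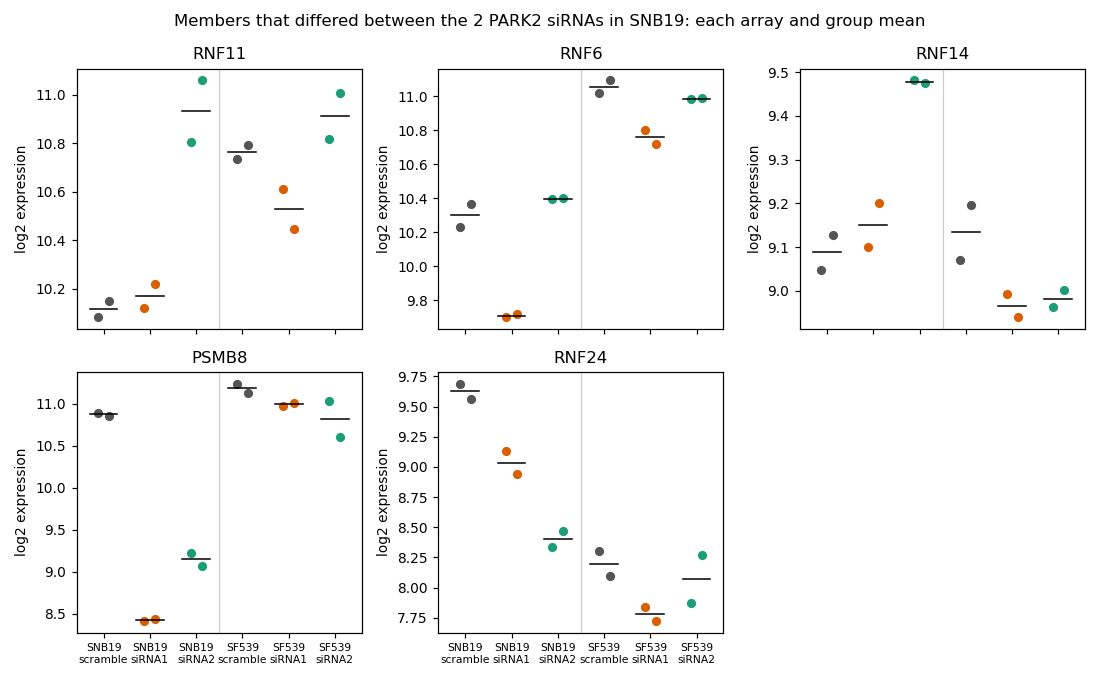
Log2 expression (vertical axis) on each array (points) and group means (lines) for the 5 members called between siRNA2 and siRNA1 in SNB19. RNF11 and RNF14 are raised with siRNA2 only, RNF6 is low with siRNA1 only, and PSMB8 and RNF24 differ from scramble with both siRNAs but by unlike amounts (RNF24 at 9.13 and 8.94 with siRNA1 against 8.33 and 8.47 with siRNA2).

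In SF539, 5 members were called with both siRNAs (4.17%, against 9.82% of all genes), 3 higher and 2 lower (5.8% and 4.01% of all genes). CUL4B read 9.38 and 9.37 with scramble, 9.73 and 9.75 with siRNA1, and 9.89 and 9.88 with siRNA2. The groups did not overlap, and the rise of 0.44 ± 0.06 (limma adjusted p = 0.00319) was the largest called; with the mean of its 4 probe sets the adjusted p was 0.103, and with the SF539 arrays alone 0.062. USP9X, a deubiquitinase of many signalling proteins, read 9.41 and 9.51 with scramble, 9.70 and 9.68 with siRNA1, and 9.78 and 9.82 with siRNA2, a rise of 0.29 ± 0.07 (adjusted p = 0.0252). Its siRNA arrays all lay above scramble. In SNB19 USP9X was called higher as well, at 0.27, with all siRNA arrays above scramble.

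USP7 in SF539 read 9.25 and 9.44 with scramble, 9.63 and 9.64 with siRNA1, and 9.63 and 9.67 with siRNA2, a rise of 0.29 ± 0.08 (adjusted p = 0.0436). PSMD8, a regulatory particle subunit, read 11.60 and 11.54 with scramble, 11.35 and 11.39 with siRNA1, and 11.28 and 11.20 with siRNA2, a fall of 0.27 ± 0.07 (adjusted p = 0.0381). Neither overlapped with scramble. In SF539 all siRNA arrays lay above both scramble arrays for 13 members (10.8%, against 13.7% of all genes). They lay below for 24 members (20%, against 14.5% of all genes). UBE2L6, CUL4B, USP9X, USP7 and PSMD8 are the 5 members called.

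The SF539 count moved with single arrays. It rose without either siRNA2 array, and fell without scramble replicate 1, either siRNA1 array or any 1 of the SNB19 arrays. The share of all genes called in these fits is not given, so the shifts are not a result about the members. Of the 5 calls, that of CUL4B held without any 1 array. Those of UBE2L6, USP9X, USP7 and PSMD8 were lost without scramble replicate 1 (adjusted p of 0.12, 0.175, 0.295 and 0.203), without siRNA1 replicate 1 (0.068, 0.0763, 0.101 and 0.105) and without siRNA1 replicate 2 (0.054, 0.0696, 0.11 and 0.088). Without scramble replicate 2 it was lost for UBE2L6 (0.0869), USP9X (0.0546) and PSMD8 (0.0979). For USP7 and PSMD8 it was also lost without any 1 SNB19 array (adjusted p between 0.0561 and 0.0739).

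In SF539 limma called 0 of the E1, F-box and RNF genes; at an unadjusted p below 0.05 there were 0 of 2, 5 of 14 and 5 of 22, where 25.1% of all genes were below it. USP13 at 0.60 ± 0.18 and FBXO21 at 0.56 ± 0.19 had the largest positive differences among members not called (adjusted p of 0.07 and 0.0928), chosen after their values were seen. FBXO7, UBE2N, UBE2K, USP8 and RNF41, the measured 5 of 10 genes listed as partners or opponents of parkin, differed in SF539 by between -0.10 and 0.17, with 0 called by limma and 1 below an unadjusted p of 0.05; in SNB19, 1 of the 5 rose and 2 fell.

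Constitutive proteasome genes in SF539 were lower on a single array. Relative to the mean of the 2 scramble arrays, the median over the 29 genes was -0.01 and 0.03 on the siRNA1 arrays and -0.06 on siRNA2 replicate 1, but -0.37 on siRNA2 replicate 2, where 29 of 29 genes lay below. The medians of all genes on the 2 siRNA2 arrays were -0.02 and -0.04. Between the 2 siRNA2 arrays the genes differed by a median of -0.31, replicate 2 being lower for all 29, and by -0.0033 over all genes; the E2 and cullin medians were -0.11 each, the F-box median -0.09, the RNF median 0.01 and the deubiquitinase median -0.01. Over all members the median was -0.17, with 84 of 120 lower on replicate 2, and on that array 12 of 12 E2 genes lay below the scramble mean. The array is also the one in which UBE2S, PSMB8, PSMB10 and UCHL1 read lowest of the 6 SF539 arrays.

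With both arrays, siRNA2 alone called 12 members in SF539 (4 higher, 8 lower; 15.2% of all genes were called, 8.66% higher and 6.5% lower), 4 of them constitutive proteasome genes, all lower, with a list median of -0.22. Without replicate 1 the list median of the siRNA2 comparison was -0.37, and without replicate 2 it was -0.06. The number of members called by the siRNA2 comparison fell without scramble replicate 1. For both siRNAs together the list median was -0.10 with 1 gene called lower. That median was -0.17 without siRNA2 replicate 1 and -0.02 without siRNA2 replicate 2.

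**Figure D4:**
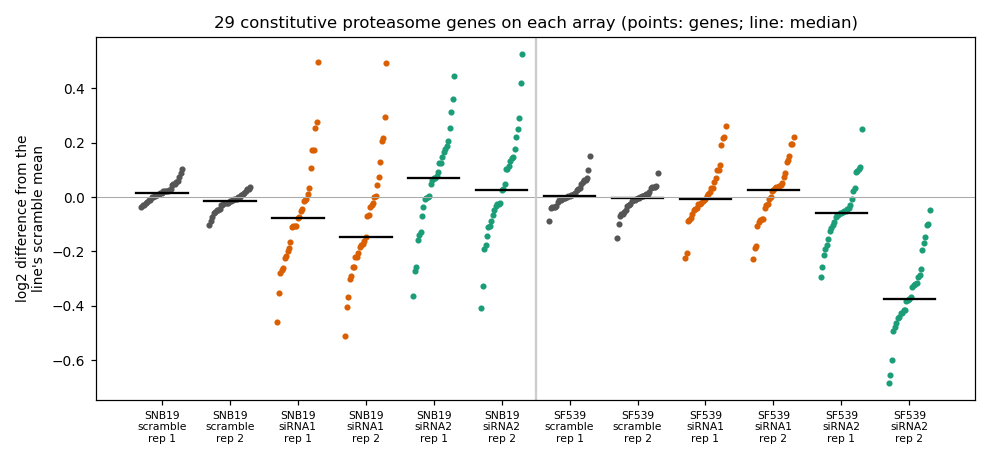
Log2 difference of each of 29 constitutive proteasome genes from the scramble mean of its line (vertical axis) on each of the 12 arrays, with a line at the median. The medians lie between -0.15 and 0.07 on 11 arrays and at -0.37 on SF539 siRNA2 replicate 2, where all 29 points are below 0.

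Among called members, the largest siRNA2 differences in SF539 were RNF144A at 0.61 ± 0.13, CUL4B at 0.51 ± 0.07 and FBXW2 at 0.41 ± 0.08 among the rises, and UCHL1 at -0.81 ± 0.21, UBE2S at -0.68 ± 0.16 and PSMC3IP at -0.84 ± 0.21 among the falls (limma adjusted p between 0.0023 and 0.0281). UBE2S, the E2 that extends chains for the anaphase-promoting complex, read 11.05 on replicate 1 and 10.50 on replicate 2, beside 11.52 and 11.39 with scramble. UCHL1, a deubiquitinase abundant in neurons, read 8.37 and 7.55, beside 8.85 and 8.69. In both genes the siRNA2 arrays lay below scramble but far from each other. These calls of UCHL1, UBE2S, PSMC3IP and RNF144A were lost without scramble replicate 1 (adjusted p of 0.135, 0.103, 0.0895 and 0.0578) or 2 (0.0694, 0.0527, 0.11 and 0.0641). Without siRNA2 replicate 2 their values were -0.40, -0.40, -0.41 and 0.40, and without siRNA2 replicate 1 UCHL1 was at -1.22 and PSMC3IP at -1.27. With the mean of probe sets CUL4B was at 0.24 (adjusted p = 0.138). SiRNA1 alone called 1 member, CUL4B at 0.37 ± 0.07 (adjusted p = 0.0365; 2.73% of all genes were called, 1.61% higher). The call was lost without any 1 SNB19 array, either scramble array or either siRNA1 array (adjusted p between 0.0646 and 0.229), and the count was 4 without either siRNA2 array and 2 without scramble replicate 2.

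Between siRNA2 and siRNA1 in SF539, limma called 0 members (2.72% of all genes were called, 1.84% higher and 0.878% lower), with 35 members (29.2%, against 22.9% of all genes) at an unadjusted p below 0.05 and 6 called with limma's trended robust prior. Without siRNA2 replicate 1 members were called, but the share of all genes called in that fit is not given.

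The difference between the lines in response was called for 21 members (17.5%, against 19.1% of all genes), 8 higher and 13 lower in SF539 minus SNB19; on median centring, with an all-gene median of -0.18, the counts were 5 and 26. UBE2L6, PSMB8 and PSME1 led the first group. USP46 at -1.41 ± 0.12, FBXL18 at -1.21 ± 0.22 and USP22 at -0.92 ± 0.10 led the second (limma adjusted p of 3.02e-05, 0.00445 and 0.000164). The count was 11 and 10 without SNB19 scramble replicate 1 and 2, 12 without SNB19 siRNA1 replicate 2, 13 without SNB19 siRNA2 replicate 2, and 48 and 34 without SF539 siRNA2 replicate 1 and 2. With the mean of probe sets the adjusted p of USP22 was 0.132, and the value of FBXL18 was -0.78.

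The lines also differed with scramble alone. Of the 120 members, 68 (56.7%) were called, against 49.3% of all genes, with 36 higher and 32 lower in SF539 (24.6% and 24.7% of all genes). The all-gene median was 0.04 as deposited and 0.20 on median centring, where the counts were 51 and 19. UCHL1 read 12.65 and 12.59 in SNB19 and 8.85 and 8.69 in SF539, a difference of -3.85 ± 0.21 (limma adjusted p = 2.1e-07), or 14.4-fold. USP9X differed by -1.95 ± 0.08 (adjusted p = 2.19e-08), at 9.41 and 9.51 against 11.40 and 11.41. RNF187, a RING ligase, differed by -1.61 ± 0.12 (adjusted p = 1.83e-06). For all 3 the arrays of the lines were far apart.

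Higher in SF539 were CUL4A at 1.67 ± 0.09, USP12 at 1.47 ± 0.09 and the regulatory subunit PSMD12 at 1.33 ± 0.13 (adjusted p of 1.72e-07, 6.52e-07 and 1.67e-05); with the mean of probe sets USP12 was at 0.92. CUL4A and USP12, which rose in SNB19 with the siRNAs, thus started from lower values there: CUL4A went from 8.43 to 9.20 and 9.28 in SNB19, and was 10.10 with scramble in SF539. Of the 22 deubiquitinases, 17 were called, 6 higher and 11 lower, and on median centring 8 and 8. Constitutive proteasome genes were called higher in 11 and lower in 3 of 29, with a median of 0.23. On quantile normalization the counts were 9 and 4, with a median of 0.14, and on median centring 16 and 2, with a median of 0.40.

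**Figure D5:**
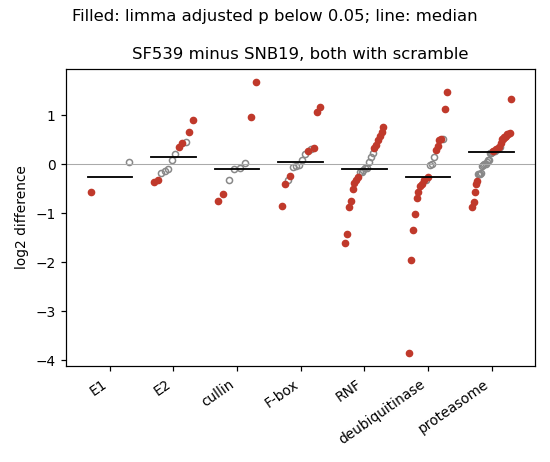
Log2 difference of each printed member between the lines with scramble (SF539 minus SNB19, vertical axis) by class, with filled points for limma adjusted p below 0.05 and a line at each class median. UCHL1 is the lowest point at -3.85 and CUL4A the highest at 1.67.

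Other genes of the pathway were followed through 6 lists of genes outside the 120. Of their measured genes, 40%, 43.8%, 36.8%, 33.3%, 33.3% and 30.8% were called in SNB19, against 32.8% of all genes, and 0%, 25%, 15.8%, 4.17%, 16.7% and 0% in SF539, against 9.82%. Of 10 ubiquitin genes and relatives, 5 are measured; ISG15, the modifier that UBE2L6 carries, fell by 5.23 ± 0.13 in SNB19 (limma adjusted p = 1.94e-09) and differed by -0.18 ± 0.13 in SF539, and NEDD8 was called higher in SNB19 at 0.22 ± 0.07 (adjusted p = 0.0457; between 0.0572 and 0.293 without any 1 of the SNB19 arrays or of the SF539 scramble and siRNA1 arrays). Of 16 measured HECT and U-box ligases, 4 rose and 3 fell in SNB19, and 1 rose and 3 fell in SF539. UBE4B, which lengthens ubiquitin chains, rose in both lines, by 1.06 ± 0.08 and 0.49 ± 0.08; in SF539 averaging its probe sets gave 0.17 (adjusted p = 0.245), and the call was also lost with the SF539 arrays alone (0.0629) and without scramble replicate 2 (0.0572). NEDD4L, a ligase of membrane channels, fell in both, with differences of -0.45 ± 0.11 in SNB19 (adjusted p = 0.0102; 0.0731 without scramble replicate 1, 0.0582 without replicate 2; -0.15 with the mean of probe sets, 0.158) and -0.93 ± 0.11 in SF539 (0.000841). SMURF2, a ligase of the TGF-beta pathway, fell in SF539 by 0.77 ± 0.08.

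Of 19 other RING ligases measured, none rose and 7 fell in SNB19, led by the interferon-inducible TRIM22 and TRIM21, with differences of -2.66 ± 0.08 and -2.54 ± 0.16 (limma adjusted p of 6.39e-09 and 1.83e-06). TRIM22 also fell in SF539, by 0.59 ± 0.08 (adjusted p = 0.00179). Of 24 cullin partners, anaphase-promoting complex and signalosome genes, 6 rose and 2 fell in SNB19 and 1 fell in SF539. DDB1, the adaptor of CUL4A and CUL4B, rose in SNB19 by 0.63 ± 0.07 (adjusted p = 0.000128). DDB2, a receptor on the same scaffold, fell by 0.77 ± 0.19 (adjusted p = 0.0108; 0.0753 and 0.0603 without scramble replicate 1 and 2).

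Of 12 other deubiquitinases and SUMO proteases, 2 rose and 2 fell in SNB19, and 1 rose and 1 fell in SF539. CYLD, which cuts signalling chains, rose by 0.96 ± 0.11 in SNB19 (limma adjusted p = 0.000144) and by 0.48 ± 0.11 in SF539 (0.0271; 0.177 without scramble replicate 2, 0.0842 without siRNA1 replicate 2 and 0.136 with the mean of probe sets, which gave 0.59 in SNB19 and 0.25 in SF539). TNFAIP3, the A20 protein, fell in SNB19 by 0.53 ± 0.08 (adjusted p = 0.000946). Of 13 genes around the p97 segregase, shuttle proteins and the NRF factors, 2 rose and 2 fell in SNB19. NFE2L1, the transcription factor that induces proteasome genes, fell in SNB19 by 0.46 ± 0.08 (adjusted p = 0.00194), and UBQLN2, a shuttle to the proteasome, rose by 0.45 ± 0.08 (adjusted p = 0.00163).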

How the data were processed

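Biotin-labelled total RNA was hybridised to 12 Affymetrix arrays, per the labels. The authors' deposited values are, by their range, log2 expression per probe set, for which the submitters' processing notes name Partek; the authors' background correction and normalization, not given in the sources used here, set the scale on which arrays are compared. Of 16376 probe sets, 14038 had 1 gene symbol, 792 had several and 1546 had none. The brightest probe set stood for each of 8545 genes. Limma 3.58.1 in R 4.3.3 fitted 6 group means without a block and tested two-sided contrasts with 6 residual and 3.65 prior degrees of freedom. The members, lists and tests were chosen with earlier results of these data known. Named genes are up to 4 rises and 4 falls per class and line among calls of the same sign with both siRNAs, the 3 largest each way in other comparisons, up to 2 each way per list and line of other pathway genes, and every measured member of the interferon, parkin and cyclin lists. The fit was tested on simulated data. Alternatives were a replicate block, quantile normalization, median centring, leaving out the dimmest 40% of genes, the mean of probe sets, array weights, a minimum of 1.5-fold, a trended robust prior, 1 line alone and leaving out each array; applying them to the classes and the proteasome list was chosen after seeing the data. The number of arrays limits the precision, and no detection calls were used, so low values may hold little signal; USP53, at a mean of 2.48, lay below every array's lower quartile (3.93 to 4.02). Figures were drawn with matplotlib.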

Additional observations from a re-analysis of the deposited data

Results flagged for a closer look

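These 21 members had an effect of the siRNAs that differed between the lines, by limma's test of the difference (SF539 response minus SNB19 response, adjusted p below 0.05). Positive values were UBE2L6 at 4.08, PSMB8 at 1.81, PSME1 at 1.64, RNF19B at 1.26, PSMB10 at 0.86, RNF24 at 0.64, USP4 at 0.55 and RNF187 at 0.50, and each of these 8 was lower with the siRNAs in SNB19. Negative values were USP46 at -1.41, FBXL18 at -1.21, USP22 at -0.92, CUL4A at -0.87, PSMC3 at -0.70, FBXW2 at -0.62, RNF11 at -0.48, USP12 at -0.42, USP7 at -0.41, PSMD8 at -0.39, RNF14 at -0.39, FBXW11 at -0.33 and FBXO28 at -0.31. FBXO28 was not called in either line alone. PSMD8 was called in SF539 only, and USP7 was called higher in both lines, though its SF539 call was lost with the mean of probe sets. For PSMC3 the values had opposite signs, 0.36 in SNB19 and -0.34 in SF539, of which the second was not called. FBXL18 also changed sign, at 0.83 in SNB19 with a 95% interval of -0.73 to -0.03 in SF539. It was not called in SF539. PSMD8, FBXO28 and RNF187 were among others of the 21 whose values had opposite signs in the lines. Groups of 2 arrays are too small for a test of single outlying samples.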

How the results depend on the processing

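The counts of members called depended on the setting as follows. These counts, and those with an array left out here and above, come without the share of all genes called under the same setting. They therefore do not show whether the members moved more than other genes. With a 1.5-fold minimum, which tests for a change above that size, 7 members were called in SNB19 with both siRNAs, 0 in SF539, 4 for the difference between lines, 15 between the lines with scramble, 7 with siRNA1 and 7 with siRNA2 in SNB19, 0 with siRNA1 and 0 with siRNA2 in SF539, and 0 between the siRNAs in SNB19. With array weights the counts were 2 in SF539 with both siRNAs, 58 and 53 with siRNA1 and siRNA2 in SNB19, 1 with siRNA2 in SF539 and 20 between the siRNAs in SNB19. Without the dimmest genes they were 8 in SF539, 33 for the difference between lines, 3 and 23 with siRNA1 and siRNA2 in SF539, and 4 between the siRNAs in SF539. With the trended robust prior they were 3, 20 and 6 for those last 3 comparisons. With 1 line alone they were 0, 0 and 1 in SF539 with both siRNAs, siRNA1 and siRNA2, and 55 with siRNA1 and 9 between the siRNAs in SNB19. For siRNA1 in SF539, median centring and the mean of probe sets each gave 0.

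Leaving out each array in turn gave 22 to 55 members in SNB19 and 1 to 29 in SF539 with both siRNAs, 10 to 48 for the difference between lines, 52 to 84 between the lines, 20 to 53 and 18 to 48 with siRNA1 and siRNA2 in SNB19, 0 to 4 and 2 to 53 in SF539, 1 to 12 between the siRNAs in SNB19, and 0 to 51 in SF539; the lone partner is assumed to vary like the other groups. A replicate block gave 1 in SF539 with both siRNAs, 0 with siRNA1 in SF539 and 3 between the siRNAs in SNB19, and moved no other count by over 1.5 times. The replicate numbers were not taken as pairs because the labels do not say that they pair the samples. Looked at afterwards, same-numbered arrays of a line did not deviate together (correlations between -0.18 and 0.11).

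Of 118 named results, 104 were called. Of these, 32 kept their call in every alternative and 72 lost it in at least 1. The alternatives include the 1.5-fold minimum, which asks for a larger change and so drops small ones. With that minimum set aside, 27 of 55 named calls with both siRNAs in SNB19 and 3 of 14 in SF539 were kept throughout. The direction of PSME4 in SNB19 reversed with the mean of probe sets (-0.13). Without SF539 siRNA2 replicate 1 or 2, counts in other comparisons rose as well. The cause was not tested.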
